A study of Mus musculus with 8 samples.

Results

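The 35 genes described here belong to the Notch pathway. They are receptors, ligands, the enzymes that modify and cut the receptors, the nuclear complex, regulators, and Hes and Hey genes. Some of the Hes and Hey genes are known to be switched on by the pathway. The 35 were the rows of the deposited RNA-seq table whose gene name equalled a name on a fixed list. Each of the 35 names matched 1 of the 19429 genes in the table. The RNA came from LF2, a mouse embryonic stem cell line, grown in serum with LIF. All lines carried a FLAG tag at the C-terminus of both copies of TET1, a dioxygenase that oxidises 5-methylcytosine. TET1 was otherwise wild type in 2 of the 4 lines (WT, lines 2 and 5). The other 2 (D2018A, lines 7 and 8) had alanine in place of an aspartate, a change made to weaken binding of the O-GlcNAc transferase OGT. Every line grew from a single edited cell, and 2 technical replicates of each were sequenced, so that a genotype had 4 libraries. According to the study's methods, the WT lines also carry a deletion away from the Cas9 cut site that the D2018A lines lack.

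The only values used for each gene were its position and the authors' mean normalised count over all libraries of their fit. That mean pools WT and D2018A libraries, so no level given below belongs to either genotype, and no difference between genotypes is reported. The fold changes and p-values of the authors' own comparison were not used, and with 1 pooled value per gene there is no replicate error. The levels describe which parts of the pathway these stem cells transcribed, and by how much.

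Notch receptors are single-pass membrane proteins. A ligand of the Delta or Jagged family on a neighbouring cell pulls on the receptor, an ADAM protease and then gamma-secretase cut it, and the freed intracellular domain enters the nucleus. There it joins the DNA-binding protein RBPJ and a Mastermind coactivator to turn on target genes, of which Hes and Hey repressors are the best known. In mouse embryonic stem cells Notch signalling is known mainly for its part in neural fate choice on differentiation, and Hes1 is known to oscillate.

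The depth behind the means was read from the table itself. A gene with 1 read in 1 library has a mean set by that library alone, so genes of this kind pile up on the same few low values. The lowest means fell on 12 such steps, each shared by 38 to 123 genes. By this count the mean covers 12 libraries, 4 more than the 8 described, and which cells those 4 came from was not settled. The study's RNA-seq methods give the same 8, while its general methods speak of further lines of each genotype without naming the assay. The 12 size factors spanned 0.726 to 1.47, and the means of all genes added up to 10937569 counts. All genes in the table had at least 1 read in some library.

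The stem cell label was checked against markers. All 8 embryonic stem cell markers had mean normalised counts of at least 100, and 7 of them of at least 1000. Esrrb, an orphan nuclear receptor of naive cells, had the highest level of these at 3817 mean normalised counts per kb of exon, and Zfp42 the lowest at 520. Summed over each list, the levels per kb were 14275 for the 8 stem cell markers, 144 for 6 primitive endoderm markers, 59.6 for 5 mesendoderm markers and 11.1 for 4 trophectoderm markers. The 6 neural markers summed to 1007 per kb, of which Tubb3, a neuronal tubulin, gave 929, and Neurog2, a proneural factor, was lowest at 0.276. The 4 endothelial markers summed to 279 per kb, of which Pecam1, an adhesion molecule that embryonic stem cells are also known to make, gave 269, and Kdr was lowest at 0.834. Of 6 fibroblast markers, Dcn and Postn were not in the table. The 4 that were summed to 82.4 per kb, led by Thy1 at 64.8, with Col3a1 lowest at 0.0095. The extremes of the other lists were Sox7 (100.2 per kb) and Sox17 (2.13), Eomes (47.8) and Mesp1 (0.902), and Hand1 (6.79) and Elf5 (0.192). In such bulk samples, fewer cells of a type and less RNA per cell cannot be told apart.

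**Figure D1:**
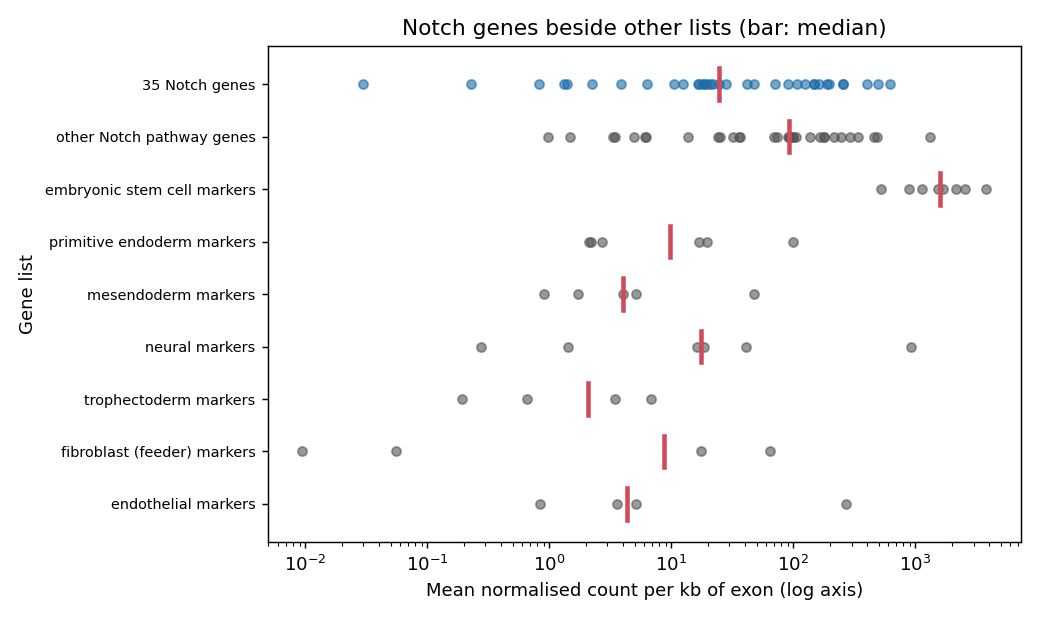
Mean normalised count per kb of exon (log axis) of the 35 Notch genes, of other Notch pathway genes and of markers of 7 cell types, 1 point per gene, with a red bar at each list's median. The median is 24.8 per kb for the 35 Notch genes and 1599 for the stem cell markers.

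As a whole the Notch genes sat in the middle of the transcriptome, but their levels were widely spread. Of the 35 genes, 31 had a mean normalised count of at least 10, which is 88.6%, against 66.3% of all genes in the table and 73.3% of protein-coding genes. A mean of at least 100 was reached by 18 of the 35, 51.4%, close to the 50.8% of protein-coding genes. A mean of at least 1000 was reached by 9 of the 35, 25.7%, against 14.2% of protein-coding genes. Longer transcripts give more reads, so levels of different genes are compared below only as the mean normalised count divided by the length of the gene's merged exons in kb, the level per kb. The median level per kb was 24.8 for the 35 genes and 24.5 for 16922 protein-coding genes. By level per kb, 12 of the 35 lay above 106, the level that the upper 25% of protein-coding genes exceeded, 6 lay between 24.5 and 106, 11 between 2.36 and 24.5, and 6 below 2.36. These shares are a description of a list chosen by function, and no test was made.

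**Figure D2:**
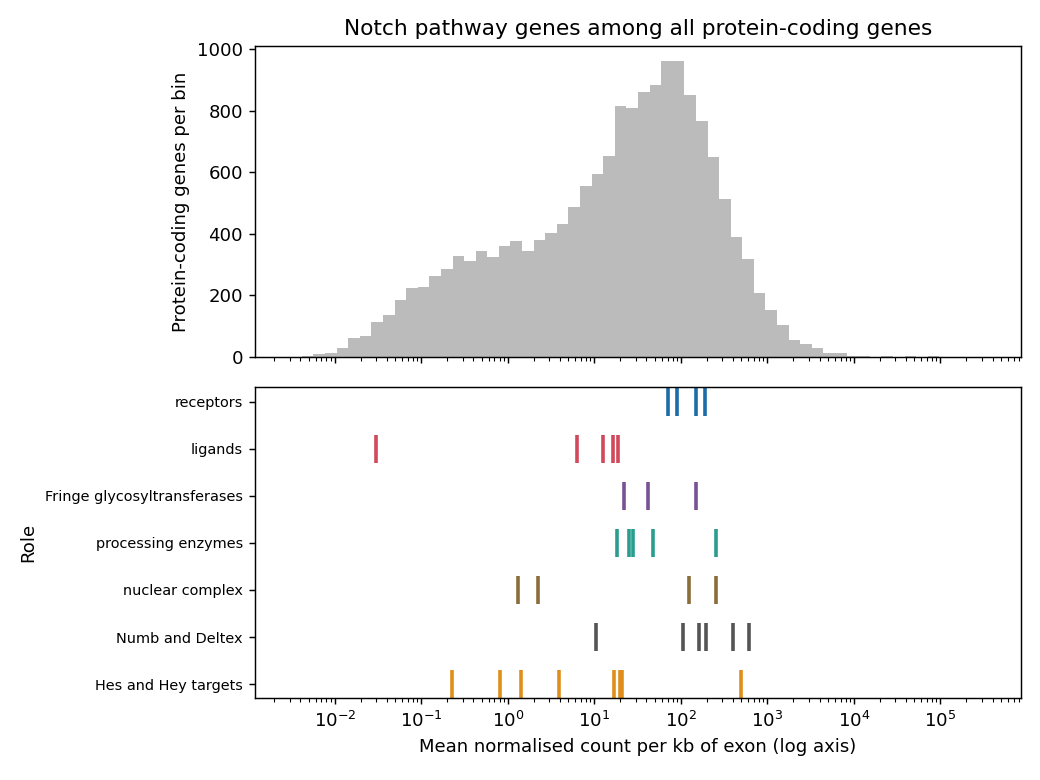
Upper panel, number of protein-coding genes by mean normalised count per kb of exon (log axis), over 16922 genes. Lower panel, each Notch gene as a tick on the same axis, by role. Receptors form a narrow group at 70.8 to 188 per kb, while Hes and Hey genes span 0.227 to 498.

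All 4 receptor genes were transcribed at substantial levels. Notch1 (chromosome 2, 26457903 to 26516663 of GRCm38, minus strand) had a mean normalised count of 2678, Notch3 (chromosome 17) of 1206, Notch2 (chromosome 3) of 975 and Notch4 (chromosome 17) of 571. On the level per kb the order was the same, with 188 for Notch1, 149 for Notch3, 90.5 for Notch2 and 70.8 for Notch4. The receptors differed by 2.66-fold from highest to lowest, the narrowest range of the 7 role groups on this scale. The counting intervals of neighbours in this order, which cover counting error only, did not overlap. Notch4, best known from endothelium, still lay at percentile 67.4 of protein-coding genes by level per kb. The endothelial markers were at 269 per kb for Pecam1, 5.12 for Tek, 3.62 for Cdh5 and 0.834 for Kdr, and the part of such cells in the Notch4 level was not tested.

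Transcripts of the 5 Delta and Jagged genes were far scarcer than receptor transcripts. The summed level per kb was 54.0 for these 5 ligand genes, Dll3 included, and 499 for the 4 receptors. The receptors over these ligands gave a ratio of 9.23. The ratio was 9.89 with the longest transcript as the length and 8.18 with the longest coding sequence. Jag1 (chromosome 2, 137081456 to 137116644, minus strand), a Jagged ligand, had a mean normalised count of 109 and a level of 18.6 per kb, with a 95% Poisson interval of 17.7 to 19.7. Dll3, a Delta-like protein that is known to act inside the cell against Notch rather than as an activating ligand, had a mean normalised count of 47.0 and 16.5 per kb (15.2 to 17.9). The intervals of Jag1 and Dll3 overlap and their ratio was 1.13, and the spread between libraries, which could change their order, is not in a pooled mean. Jag2 followed at 87.4 mean normalised counts and 12.6 per kb. Dll1, the ligand of somite and neural boundaries, was at 26.7 and 6.33 per kb. For Dll1, 16.1% of the 50-base stretches of its transcripts also occur in A930024N18Rik, a noncoding gene on the opposite strand.

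Dll4, the ligand of sprouting vessels, was the least abundant of the 35 genes. Its mean normalised count of 0.115 equals the step left by 1 read in the library with the smallest size factor, so a single read lay behind it. Its level of 0.0298 per kb carried a Poisson interval of 0.000527 to 0.116. All 4 other ligand genes had more reads: at least 233 for Dll1 and at least 946 for Jag1. Among the Delta and Jagged genes, then, 4 of 5 passed a mean of 10 and only Jag1 passed 100.

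**Figure D3:**
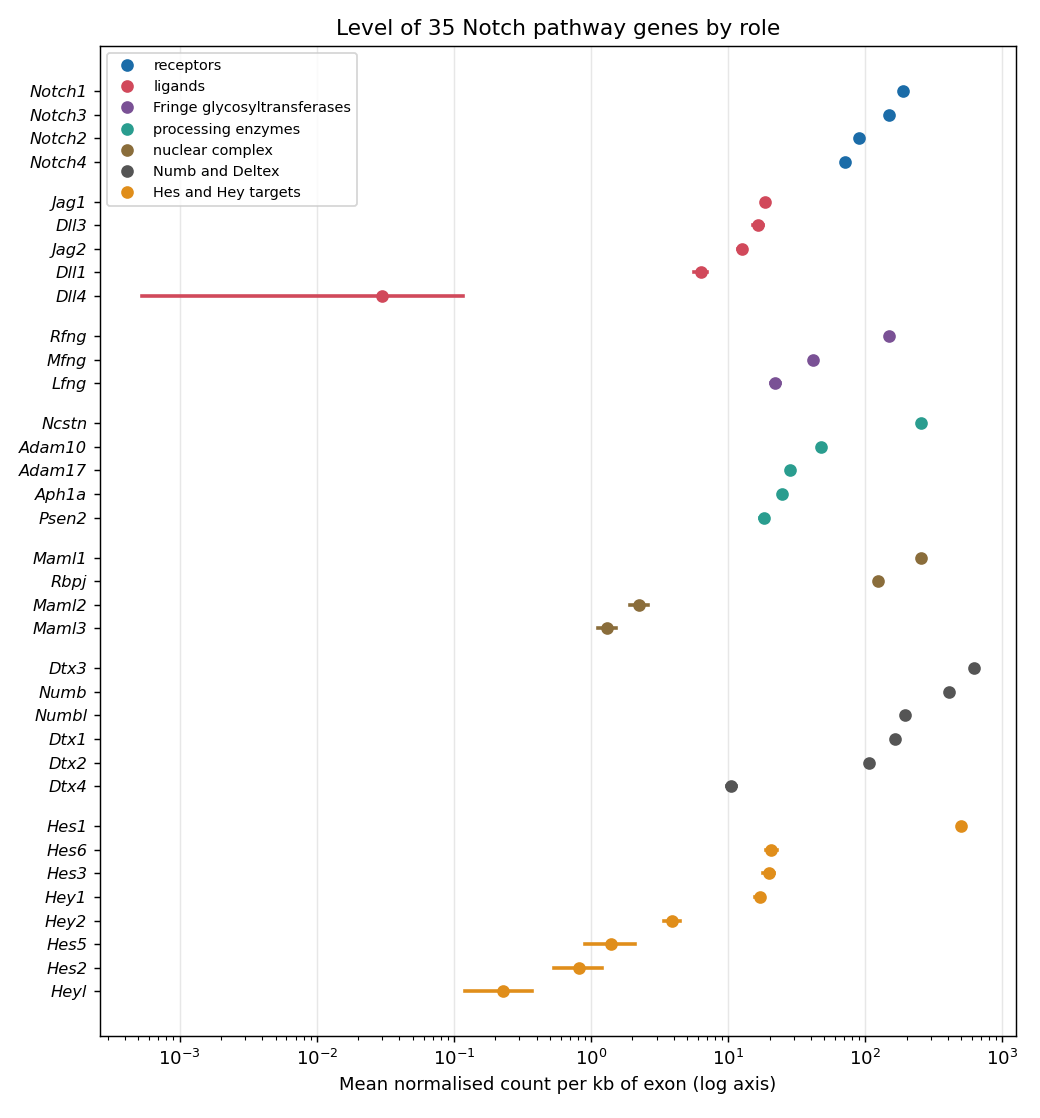
Mean normalised count per kb of exon (log axis) of the 35 Notch genes, grouped by role and ordered within each. Points are the pooled value and lines the 95% Poisson interval for counting error, which is narrower than most points. Hes1 lies at 498 per kb and the next Hes gene, Hes6, at 20.6, while Dll4 rests on 1 read.

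Fringe glycosyltransferases extend a sugar on Notch and thereby change which ligands it answers to. Rfng was the highest of the 3 with a mean normalised count of 367 and a level of 148 per kb. Mfng had 118 and 41.5 per kb, and Lfng 55.3 and 22.1 per kb. Rfng exceeded Lfng by 6.69-fold per kb, and their intervals were far apart (143 to 152 against 20.5 to 23.8). Lfng is the member known for cycling in the somite clock.

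Of the genes for receptor cleavage, Ncstn stood above the others. It encodes nicastrin, the gamma-secretase subunit that admits substrates, and had a mean normalised count of 1012 and a level of 255 per kb. Adam10 and Adam17, the proteases that make the first cut, had 233 and 202 mean normalised counts, or 47.4 and 28.3 per kb. Aph1a, a scaffold subunit of gamma-secretase, had 85.5 mean normalised counts and 24.8 per kb, and Psen2, a presenilin that forms the catalytic core, had 78.7 and 18.2 per kb. Ncstn exceeded Aph1a, a subunit of the same complex, by 10.3-fold per kb of merged exon and by 4.43-fold per kb of coding sequence. For Aph1a, however, 39.5% of the 50-base stretches of its transcripts also occur in other genes, mostly the annotated gene Gm15429, so its count is uncertain. How such reads were counted is not given in the sources used here. Ncstn shares 195 exon bases, 4.91% of its exon length, with Copa on the opposite strand, and Copa had a mean normalised count of 4090. Adam17 shares 311 exon bases with Iah1.

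In the nuclear complex, 1 Mastermind gene dominated. Maml1 had a mean normalised count of 1418 and a level of 257 per kb. Maml2 and Maml3 had 14.8 and 13.8 mean normalised counts, or 2.24 and 1.32 per kb. Maml1 therefore exceeded its paralogs together by 72.1-fold per kb, and made up 98.6% of the summed level of the 3 genes. With the coding length the ratio was 56.1. Rbpj, the DNA-binding partner of all 3, had a mean normalised count of 1589 and 125 per kb. Its merged exons span 12750 bases while its longest transcript has 5485. With the longest transcript Rbpj came to 290 per kb against 257 for Maml1, so the order of the pair depends on the length used. For Rbpj, 10.6% of its stretches occur elsewhere, mostly in the processed copy Rbpj-ps3.

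The regulators Numb, Numbl and Deltex were the most abundant group, with a median of 179 per kb and a summed level of 1496. Numb and Numbl encode adaptor proteins that hold Notch back by directing it to endocytosis. Numb had a mean normalised count of 1586 and 405 per kb, and Numbl 1693 and 195 per kb. Numb was 2.07-fold higher than Numbl per kb of merged exon but 0.867 times as high per kb of coding sequence, so their order is not settled. Deltex genes encode ubiquitin ligases of the Notch pathway. Dtx3 (chromosome 10, 127190378 to 127195728, minus strand) had the highest level per kb of all 35 genes, 615, from a mean normalised count of 1583. Dtx1 and Dtx2 followed at 860 and 751 mean normalised counts, or 163 and 107 per kb. Dtx4 was lowest of the group at 55.1 and 10.5 per kb, which is 58.3-fold below Dtx3. The span of Dtx3 overlaps that of F420014N23Rik on the opposite strand by 480 bases, but their exons share 0 bases.

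Among the Hes and Hey genes, Hes1 accounted for most of the summed level. Hes1 (chromosome 16, 30064384 to 30067796, plus strand) had a mean normalised count of 1014 and a level of 498 per kb, at percentile 94.2 of protein-coding genes and second to Dtx3 among the 35. It made up 88.7% of the summed level of the 8 Hes and Hey genes, and 85.2% when coding lengths were used. Hes6, which encodes a Hes-like protein that is known to oppose Hes1, had 37.2 mean normalised counts and 20.6 per kb. Hes3 had 38.5 mean normalised counts and 19.7 per kb, and Hey1 had 55.3 and 16.9 per kb. The intervals of Hes6 (18.8 to 22.6) and Hes3 (17.9 to 21.5) overlap, as do those of Hes3 and Hey1 (15.7 to 18.2). The ratio of neighbours was 1.05 for Hes6 over Hes3 and 1.16 for Hes3 over Hey1, and without values per library neither order could be set against a replicate spread.

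The remaining Hes and Hey genes were lower still, and 3 of the 4 rested on few reads. Hey2 had a mean normalised count of 17.8 and 3.87 per kb, from 155 to 314 reads. Hes2 had 2.15 mean normalised counts, which is 19 to 38 reads over the 12 libraries, Hes5 had 1.91 (17 to 33 reads) and Heyl 1.16 (11 to 20 reads). Hes5, with Hes1 the main Notch effector in neural progenitors, was thus at 1.40 per kb with an interval of 0.904 to 2.10. Of its 50-base stretches, 21.8% also occur in Gm20421. The intervals of Hes5 and Hes2 (0.541 to 1.19) overlap. Below a mean of 10 lay Dll4, Hes2, Hes5 and Heyl, a ligand and 3 Hes and Hey genes. Hes7, a target outside the 35 that drives the somite clock, had a mean normalised count of 2.68 and 1.48 per kb.

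**Figure D4:**
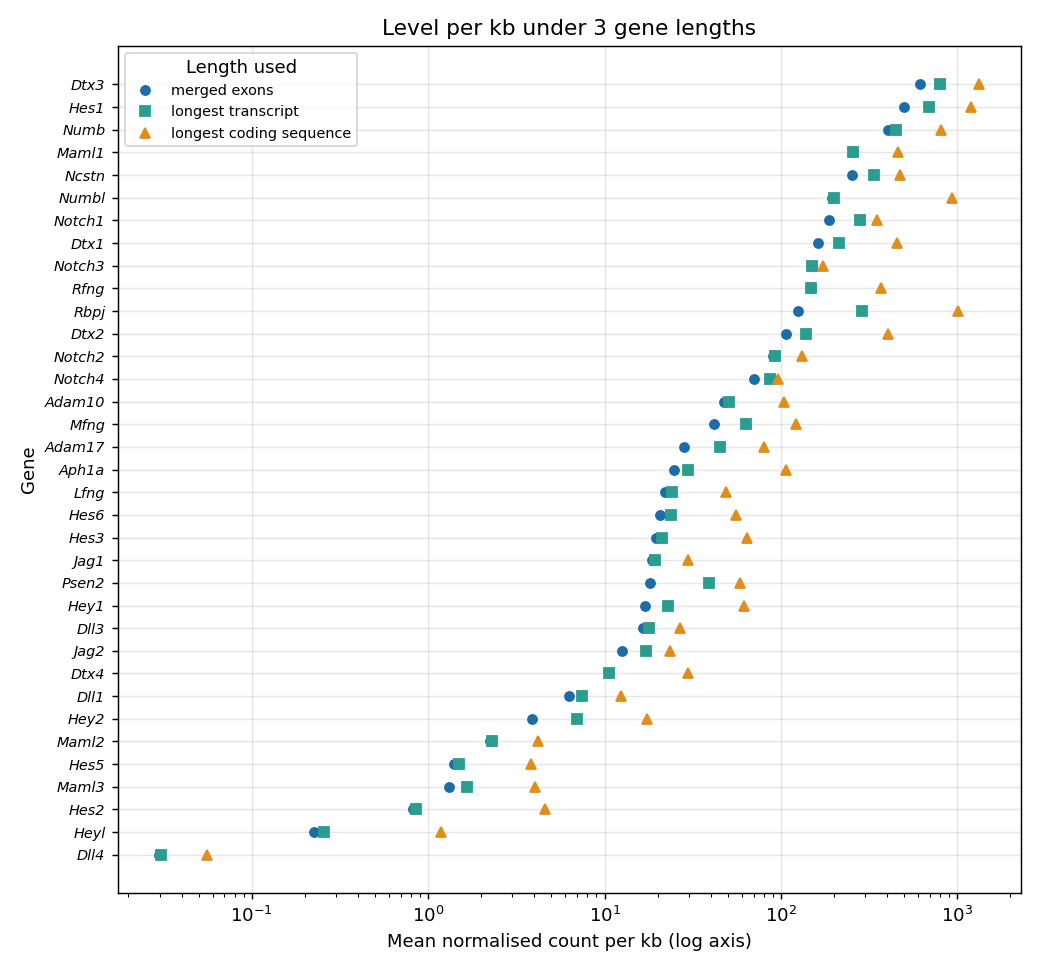
Mean normalised count per kb (log axis) of each of the 35 genes with 3 lengths: merged exons, longest transcript and longest coding sequence. The last scale is always highest, and Rbpj moves most among the abundant genes, from 125 to 290 to 1007 per kb.

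Other genes known to act in or beside the pathway were taken from a list of 32, all of which were in the table. A mean of at least 10 was reached by 29, of at least 100 by 23 and of at least 1000 by 8. Their median level was 91.8 per kb, at the median percentile 72.5 of protein-coding genes. The highest were Tle4, a Groucho corepressor of the kind that Hes proteins recruit, at 1331 per kb, Myc at 482 and Ep300, an acetyltransferase of the Notch activation complex, at 458. The lowest were Dlk2 at 0.972 per kb, Hes7 at 1.48 and Psenen, the smallest gamma-secretase subunit, at 3.30. Nrarp, a feedback inhibitor that Notch is known to induce, had a mean normalised count of 64.2 and 24.8 per kb. The ubiquitin ligase Mib1, which ligand endocytosis requires, was at 31.9 per kb.

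The 35 genes lie on 14 chromosomes. The closest pair was Hes2 and Hes3 on chromosome 4, 123502 bases apart, with Hes5 a further 2669260 bases along and Heyl on the same chromosome. Of these 4 genes on chromosome 4, Hes3 alone passed a mean of 10. Notch3 and Notch4 lie 2397387 bases apart on chromosome 17. The spans of 10 of the 35 genes overlap another gene of the table, 9 of them on the opposite strand. Whether strand was used in counting is not given in the sources used here, so reads of such pairs may be mixed. The tenth is Maml2, which contains Phxr4 within its span on the same strand, with 0 shared exon bases. Shared exon bases were at most 20.5% of a gene's exon length, for Dll1 with A930024N18Rik, then 12.9% for Aph1a with Car14 and 6.03% for Notch3 with Gm17276. Maml1 shares 135 exon bases with Gm26542. Psen2 with Gm31728 and Rbpj with Gm40304 overlap in span but share 0 exon bases.

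TET1 is known to bind promoters rich in CG dinucleotides, so promoter windows of the Notch genes were described. RefSeq windows on GRCm38.p6, from 250 bases before to 50 after a start site, were at hand for 27 of the 35 genes (34 windows). The windows of Rbpj overlap each other, and both were counted. No window was listed for Hes1, Hes2, Hes3, Hey1, Heyl, Mfng, Dtx3 and Dtx4. The median number of CG dinucleotides was 22.5 in the 34 windows and 7 in all 32851 windows of the reference. Those windows cover 27025 genes and were not limited to the 16922 protein-coding genes used for levels. They are thus not a matched background, here or for the motif shares below. At least 20 were held by 21 of the 34 windows, against 26.5% of all windows. Windows with many CG dinucleotides belonged to genes of low as well as fairly high level. Jag2 had 63 at a level of 12.6 per kb, Rfng 44 at 148 per kb, Notch2 41 at 90.5 per kb, and Hes5 41 at 1.40 per kb. Numb, the highest gene with a window at 405 per kb, had at most 13, Dll4, the lowest at 0.0298 per kb, had 17, and Notch4 had 5.

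**Figure D5:**
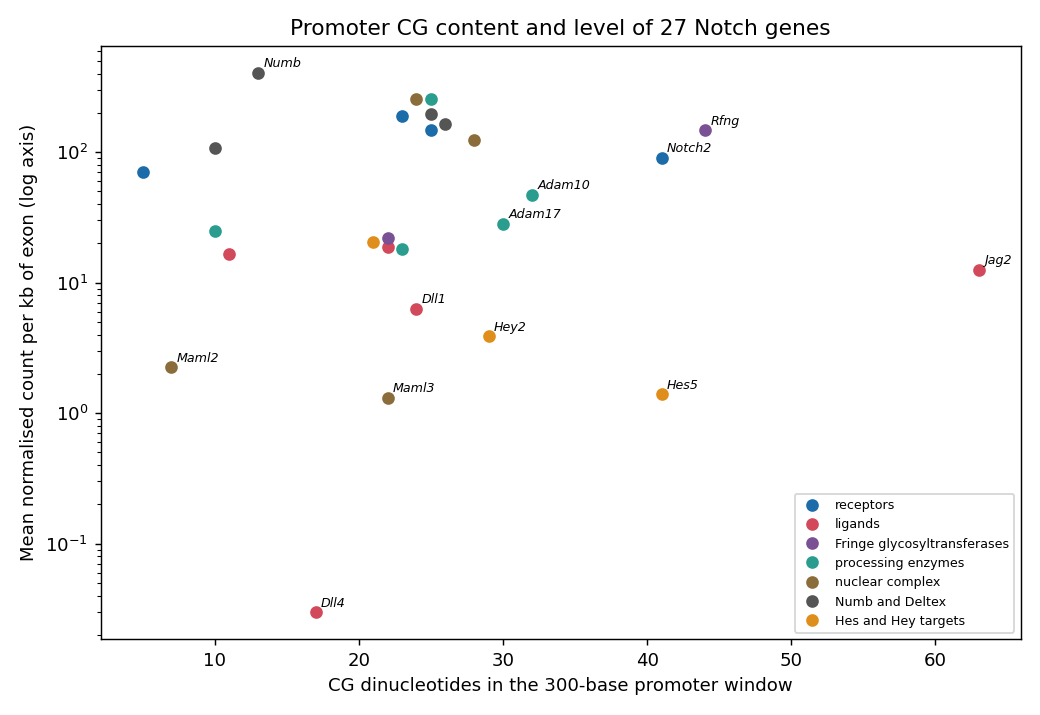
CG dinucleotides in the promoter window (for genes with several windows, the one with most) against the mean normalised count per kb of exon (log axis) for 27 Notch genes, coloured by role, with names beside points that stand clear of others. Hes5 combines 41 CG dinucleotides with 1.40 per kb, and Numb 13 with 405 per kb.

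Windows were also searched on both strands for TGGGAA, the core of the site that RBPJ is known to bind, and, chosen after the first search, for the longer GTGGGAA, which contains it. TGGGAA occurred in 10 of the 34 windows, from 9 genes, and in 25.6% of all windows. Both windows of Rbpj held it, and as they overlap, the same copy may be counted in both. The windows of Hes5, Hey2 and Lfng and 1 of Rbpj held 2 copies of TGGGAA, and 3.79% of all windows held 2 or more. GTGGGAA occurred in 5 of the 34, those of Hes5, Hey2, Lfng, Aph1a and Psen2, and in 6.38% of all windows. Hes5 and Hey2 each held 2 copies, a number that 0.256% of all windows reached. The 30 bases around each match are shown for the targets Hes5 and Hey2, which held more than 1 copy, and for Lfng. These 3 genes were chosen after the matches and levels were seen, and the matches in Aph1a and Psen2 are not printed. Each is from RefSeq on GRCm38.p6, 5′ to 3′ on the gene's strand, with the match in capitals (TTCCCAC is GTGGGAA read on the other strand).
Hes5, plus strand, chr4:154960686-154960715, 226 bases before the start site: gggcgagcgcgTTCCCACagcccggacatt
Hes5, plus strand, chr4:154960829-154960858, 83 bases before the start site: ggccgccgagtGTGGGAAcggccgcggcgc
Hey2, minus strand, chr10:30842972-30843001, 207 bases before the start site: gcgcggtggcaTTCCCACgcctctgccaac
Hey2, minus strand, chr10:30842769-30842798, 4 bases before the start site: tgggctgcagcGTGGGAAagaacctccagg
Lfng, plus strand, chr5:140607221-140607250, 109 bases before the start site: ccgtatcccacGTGGGAAggagagatctcc

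A match describes the letters in a window and not a bound site. Beside these sequences the levels were 1.40 per kb for Hes5, 3.87 per kb for Hey2 and 22.1 per kb for Lfng. Aph1a and Psen2, which also held GTGGGAA, were at 24.8 and 18.2 per kb. Rbpj itself, at 125 per kb, and Maml1, at 257 per kb, were both above all of these genes in the pooled libraries. A link between a match and the level of a gene was not tested.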

How the data were processed

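RNA was extracted from WT lines 2 and 5 and D2018A lines 7 and 8, depleted of ribosomal RNA and made into libraries with a kit for total RNA. The authors aligned single-end reads of 50 bases to GRCm38.p6 and counted them per gene with STAR 2.5.3a, then normalised the counts with DESeq2 1.20.0, per the labels and the study's methods. The deposited table holds 1 mean signal per gene, the authors' mean of counts divided by a size factor per library, together with 5 columns of the authors' own comparison (log2 fold change, its standard error, statistic, p-value and adjusted p-value), which were not used. The planned count model needs counts per library, which the table does not hold, so no comparison between genotypes was made. The number of columns of values per sample left out was 0.

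Means were divided by the merged exon length of GENCODE vM21 (GRCm38), in which 19342 of 19429 identifiers were found and 17545 had the table's start and end. Percentiles are among 16922 protein-coding genes in both. Reads behind a mean were approximated as the mean times the summed size factors of 12 libraries, with exact Poisson intervals of 95%, which cover counting error only. Bounds on the reads of a gene come from the largest and smallest single-read step. A value counted as a step where 30 genes or more shared it and lower steps did not add up to it; the search was tested on simulated data. Python 3.11.15, pandas 2.3.3, NumPy 2.4.6, SciPy 1.17.1 and matplotlib 3.10.9 were used.

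Members and lists were chosen with earlier results of these data known. Named were all 35 members, the 3 highest and 3 lowest other pathway genes, the highest and lowest gene of each marker list, and genes whose spans overlap a member. Nrarp, Mib1, Cdh5, Tek, Dcn, Postn and genes with shared sequence were chosen after values were seen. So were the pairs of members given as ratios, the motif GTGGGAA and the genes whose promoter sequences are printed.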

Additional observations from a re-analysis of the deposited data

Results flagged for a closer look

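By the count of single-read steps, the means cover 12 libraries where 8 samples are described. That count was 12 to 19 across the rules tried. The source of the 4 further libraries was not settled, and they may come from the same lines or from others. By this count they contribute to every level, and their share in the level of a Notch gene was not tested.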

How the results depend on the processing

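The number of Notch genes detected, 31 at a mean of at least 10, stayed within 1.5-fold at a minimum of 1 (34), with no filter (35), at a level per kb of at least 10 (27) and without genes that overlap another gene (21), the last over fewer genes. It was 18 at a minimum mean of 100. The median percentile of the Notch genes among protein-coding genes was 50.1 per kb of merged exon and 50.3 with means not divided by length. With coding lengths it was slightly below the value for merged exons. It was 52.5 with the longest transcript, 43.1 over genes with means of 10 or more and 47.2 without overlapping genes. In a setting added once the data had been examined, without genes that share over 10% of their 50-base stretches, it was 52.2. The spread of a median over 35 genes was not estimated, so these shifts could not be set against it. The leading gene of a role group was the same in 5 of 7 groups when genes were ordered by the mean, where Numbl led over Dtx3 and Rbpj over Maml1. It was the same in 6 of 7 with the longest transcript and 6 of 7 with the coding length, both added later too, with Rbpj again above Maml1. The number of libraries was 12 with steps of at least 30, 20 or 15 genes, leaving out sums of up to 6 lower steps, a rule widened once the data had been examined. With sums of up to 3 left out, as first used, it was 12, 13 and 14, and with sums of up to 2 left out, 13, 16 and 19, where values made by 3 reads still count as steps. No paired analysis was possible because the values come from no test, and the planned count model, its block, DESeq2 and the leave-one-out fits were not run. Levels below a mean of 10 rest on few reads, and the spread between lines was not analysed here.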
